A study of Mus musculus with 10 samples.

Results

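Mrc1, Cd163, Lyve1, Pf4, Cbr2, Ms4a7 and F13a1 are marker genes of border macrophages, and their transcripts were followed here through RNA seq of microglial fractions of mouse cortex. The 7 genes were chosen by name as known markers of these cells and not by their values, from 24421 gene symbols counted in every library. Earlier results of these data were known when the genes were chosen. All 7 passed the filter on low counts, which left 18727 genes for testing. Mice were 9 months old, and libraries of 2 pooled mice each were made from WT (n = 3), from APP/PS1 (n = 4) and from N-AS-injected APP/PS1 animals (n = 3). APP/PS1 mice over-express human APP carrying the Swedish mutation together with mutant presenilin-1, as a model of amyloid deposition, and the WT mice carry neither. N-AS, N-acetyl sphingosine, was given subcutaneously at 30 mg/kg every day for 8 weeks to APP/PS1 mice from 7 months of age. The study compared them with APP/PS1 mice given vehicle, although the library labels name no vehicle. Cells were released from cortex with papain and enriched on an Optiprep density gradient, with no sort for single cell types.

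Border macrophages are the resident macrophages of the meninges, the perivascular spaces and the choroid plexus, which lie at the edges of the brain rather than in its parenchyma. They share early origin and dependence on the receptor Csf1r with microglia, but carry scavenger and lectin receptors that parenchymal microglia hardly express. A cortical preparation holds both populations when pia and vessels come along with the tissue. Mrc1 encodes CD206, a mannose receptor that the study stained on microglia as an anti-inflammatory molecule, and it is carried by border macrophages too.

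The genes lie on different chromosomes of the mm10 mouse genome (GRCm38), as annotated by GENCODE M21. Mrc1 spans chr2:14229392-14332057 on the + strand and Cd163 spans chr6:124304656-124330527 on the + strand. Lyve1 is at chr7:110850607-110863239 on the − strand and Pf4 at chr5:90772435-90773383 on the + strand. Cbr2 is at chr11:120729489-120732114, Ms4a7 at chr19:11321039-11336146 and F13a1 at chr13:36867178-37050244, all on the − strand. Each is protein coding, with a merged exon length from 0.721 kb for Pf4 to 6.74 kb for F13a1. F13a1 shares 74 exonic bases with Gm30489, an antisense gene on the opposite strand, and the strand setting of the counting is not given, so reads over these bases could belong to either gene. The microRNA gene Mir511 lies inside Mrc1 without sharing exonic bases.

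Because these genes rose and fell together between libraries, their promoters are shown for Mrc1, Cd163 and F13a1, the members with the most reads that the promoter table holds. The letters are the 250 bases before the annotated start, 5′ to 3′ on the gene's strand, from RefSeq on GRCm38.p6. Capitals mark matches to GAGGAA, the core that the myeloid factor PU.1 binds, on either strand.
Mrc1, chr2:14229164-14229413, + strand: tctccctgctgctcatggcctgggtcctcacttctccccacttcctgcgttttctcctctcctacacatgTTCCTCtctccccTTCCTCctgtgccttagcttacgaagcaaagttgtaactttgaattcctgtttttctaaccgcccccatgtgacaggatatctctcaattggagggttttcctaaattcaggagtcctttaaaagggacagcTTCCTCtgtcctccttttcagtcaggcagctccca
Cd163, chr6:124304401-124304650, + strand: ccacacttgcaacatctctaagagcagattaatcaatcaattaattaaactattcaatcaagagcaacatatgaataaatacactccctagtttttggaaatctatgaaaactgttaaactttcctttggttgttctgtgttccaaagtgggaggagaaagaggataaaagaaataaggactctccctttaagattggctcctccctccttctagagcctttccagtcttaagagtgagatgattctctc
F13a1, chr13:37050245-37050494, − strand: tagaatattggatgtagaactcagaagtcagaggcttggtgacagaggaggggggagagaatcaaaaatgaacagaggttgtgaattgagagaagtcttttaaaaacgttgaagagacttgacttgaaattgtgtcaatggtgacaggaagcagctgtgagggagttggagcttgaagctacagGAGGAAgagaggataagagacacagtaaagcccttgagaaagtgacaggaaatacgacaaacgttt
Mrc1 held 3 matches, starting 180, 167 and 35 bases before the start, F13a1 held 1 match and Cd163 held none. The table matched 6 of the 7 members with 8 promoters, and lacked Lyve1. The core occurred in 4 of these 8 promoters, those of Mrc1, Pf4, Cbr2 and the promoter of F13a1 shown, and in 23.3% of all 32851 mouse promoters of the same length. TGCTGA, the half-site of MAF factors, occurred in 0 of the 8 and in 16.1% of all promoters on either strand. The letters match or do not match in these windows only, and no binding was measured.

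The 7 transcripts were rare in these libraries. Together they held between 0.00216% and 0.00574% of all counted reads, from total counts of 8805804 to 19432075 per library. Mrc1 had the most reads, 128 to 403 per library, whereas Ms4a7 had 1 to 55, Cbr2 4 to 35 and Pf4 4 to 28. A count of 4 reads, as for Pf4 in WT replicate 1, has an exact 95% Poisson interval of 0.130 to 1.22 CPM (the reads of a gene relative to the total of its library, in the usual unit and scaled by edgeR's TMM method). Such intervals cover counting error only, because PCR copies of one molecule were not marked by molecular identifiers. With reads per exon length, Mrc1 stood highest in every group, at 2.90 ± 0.526 CPM per kb in WT (SD, n = 3), 2.59 ± 0.774 in APP/PS1 (n = 4) and 2.53 ± 1.10 in N-AS-injected APP/PS1 mice (n = 3). Ms4a7 stood lowest in every group, at 0.306 ± 0.222, 0.441 ± 0.131 and 0.214 ± 0.278 CPM per kb. The members between them, Cd163, Lyve1, Pf4, Cbr2 and F13a1, ranged from 0.433 to 1.59 CPM per kb in their group means, and their order changed from group to group. For comparison, 14 microglial markers had a median level per kb of 17.3 CPM in WT, 42.1 in APP/PS1 and 29.8 in N-AS-injected mice.

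The fractions also held other cells. Markers of microglia, oligodendrocytes, astrocytes, neurons, endothelium, mural cells, meningeal fibroblasts and red blood cells were read in every library, and no counted marker in the 14 lists of other cell types was at 0 throughout. The methods state that male mice were used, yet Xist, the transcript of the inactive X chromosome, gave 29 to 37 reads in N-AS replicate 3 and in all WT libraries, and 5253 to 11188 in the other 6 libraries. Xist therefore differed between every WT and every APP/PS1 library, and the share of sex and of genotype in any difference cannot be told apart. N-AS replicate 3 differed from its group in Xist, and values without it are given below. Mouse App, counted at 1068 to 1753 CPM, gave no check of the human transgene.

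Mrc1 showed no shift between groups beyond the spread of the libraries. Its level was 20.6, 20.2 and 14.6 CPM in WT, 11.0, 13.8, 21.9 and 19.2 CPM in APP/PS1 and 11.5, 12.7 and 24.2 CPM in N-AS-injected APP/PS1 mice. The 3 groups overlapped, and the lowest and highest values lay in the 2 APP/PS1 groups. The log2 fold change of APP/PS1 over WT was −0.16 (SE 0.30, adjusted p = 0.841 by edgeR), with a 95% interval of −0.81 to 0.50. N-AS-injected over APP/PS1 mice gave −0.04, with an interval of −0.69 to 0.62 and an adjusted p of 0.984. Without N-AS replicate 3 the same difference was −0.44 (adjusted p = 0.729 by edgeR).

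Cd163, the haemoglobin scavenger receptor, followed Mrc1 closely. It measured 9.51, 7.68 and 7.09 CPM in WT, 4.83, 5.45, 10.1 and 9.14 CPM in APP/PS1 and 5.53, 6.15 and 9.68 CPM after N-AS. In APP/PS1, replicates 1 and 2 lay below every WT library, replicate 3 above every WT library and replicate 4 within the WT range. The fold change of APP/PS1 over WT was −0.11 on the log2 scale (interval −0.76 to 0.53), and that of N-AS-injected over APP/PS1 mice −0.07 (interval −0.71 to 0.58).

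Lyve1, a hyaluronan receptor that lymphatic endothelium also carries, measured 3.92, 2.91 and 2.12 CPM in WT, 1.47, 1.57, 3.42 and 3.67 CPM in APP/PS1 and 1.98, 3.23 and 3.32 CPM after N-AS. The groups overlapped again, and the pair of low APP/PS1 libraries was the same as for Mrc1 and Cd163. Its log2 fold changes were −0.20 for APP/PS1 over WT (interval −1.08 to 0.67) and 0.15 for N-AS-injected over APP/PS1 mice (interval −0.72 to 1.02). The lymphatic endothelium list, with Prox1 and Flt4 among its 5 genes, summed to 130.3 to 191.0 CPM in WT, 133.1 to 166.0 CPM in APP/PS1 and 127.5 to 144.6 CPM after N-AS. These sums rest mainly on Reln, which averaged 103, 88.0 and 82.4 CPM in the same order of groups. Prox1 and Flt4 averaged 19.7 and 19.3 CPM in WT.

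F13a1, the A subunit of coagulation factor XIII, measured 7.61, 7.00 and 4.34 CPM in WT, 4.83, 5.12, 11.3 and 7.95 CPM in APP/PS1 and 3.76, 6.20 and 8.64 CPM after N-AS. APP/PS1 held both the highest library and libraries below 2 of the WT values. The log2 fold changes were 0.23 for APP/PS1 over WT (interval −0.57 to 1.03) and −0.24 for N-AS-injected over APP/PS1 mice (interval −1.04 to 0.55).

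The scarce members had wide intervals. Pf4, the chemokine CXCL4, which platelets also carry, measured 0.475, 1.42 and 0.434 CPM in WT, 0.604, 0.909, 1.64 and 1.33 CPM in APP/PS1 and 0.395, 1.27 and 1.77 CPM after N-AS. Its fold change of APP/PS1 over WT was 0.52 on the log2 scale, with an interval of −0.87 to 1.90 that spans both directions. It was 1.32 without WT replicate 2 and 0.20 without WT replicate 3. The platelet and megakaryocyte list, with Ppbp and Itga2b, summed to 23.6 to 44.9 CPM in WT, 26.0 to 29.4 CPM in APP/PS1 and 27.7 to 34.1 CPM after N-AS. These sums rest mainly on Gp1bb, which averaged 25.9, 20.9 and 24.8 CPM in the same order of groups. Ppbp and Itga2b averaged 0.455 and 3.99 CPM in WT. Cbr2, a carbonyl reductase, measured 1.78, 0.929 and 0.241 CPM in WT, 1.04, 0.413, 1.02 and 1.67 CPM in APP/PS1 and 0.264, 0.795 and 0.665 CPM after N-AS. Every N-AS library of Cbr2 lay within the range of the APP/PS1 libraries or below it, with a log2 fold change of −0.85 (interval −2.40 to 0.69, adjusted p = 0.763 by edgeR).

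Ms4a7, a membrane protein of the MS4A family, had the largest estimated difference from APP/PS1 to N-AS-injected mice among the 7 genes. It measured 2.50, 0.681 and 0.916 CPM in WT, 1.81, 1.24, 2.19 and 2.62 CPM in APP/PS1 and 0.0659, 0.424 and 2.36 CPM after N-AS. The APP/PS1 libraries lay within or just above the WT range, with a log2 fold change over WT of 0.59 that was 1.29 without WT replicate 1 and 0.27 without WT replicate 2. The first of the N-AS libraries rested on 1 read and the second on 8, while N-AS replicate 3, with 32 reads, lay among the APP/PS1 libraries. The log2 fold change was −1.08 (SE 0.83, interval −2.91 to 0.75, adjusted p = 0.740 by edgeR). Without N-AS replicate 3 it was −2.91, and this too missed the threshold (adjusted p = 0.677 by edgeR). The unadjusted p of that edgeR fit was 0.0047, and 1336 of 19914 genes had one under 0.05. Over all libraries voom gave −1.77 for Ms4a7 (unadjusted p = 0.017 and adjusted p = 0.469 by voom). There 1795 of 18727 genes had an unadjusted p under 0.05.

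**Figure D1:**
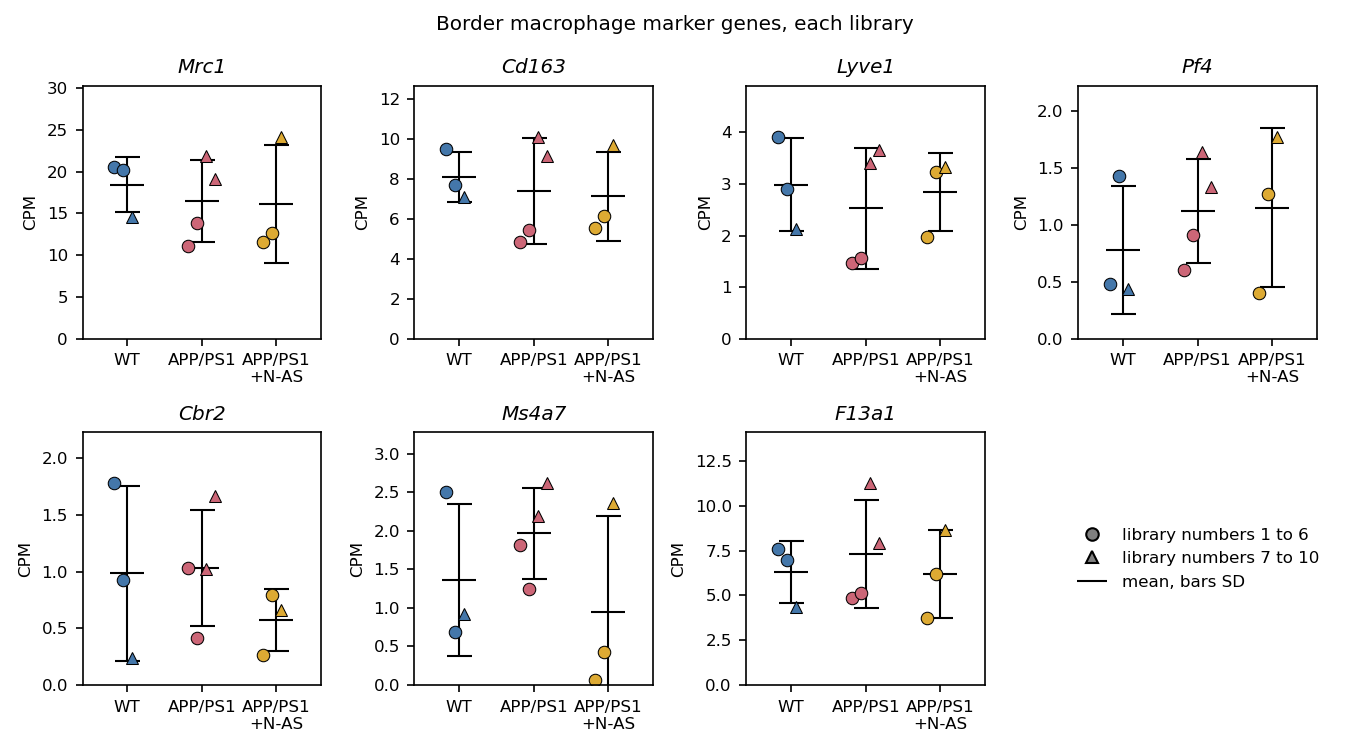
CPM (linear axes from 0) of each of the 7 genes in the WT, APP/PS1 and N-AS-injected libraries, with horizontal marks for the mean and bars for the SD. Circles are library numbers 1 to 6 and triangles library numbers 7 to 10; for Mrc1, the APP/PS1 circles are at 11.0 and 13.8 CPM and the triangles at 21.9 and 19.2 CPM, on either side of the WT mean of 18.5 CPM.

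Over the 7 genes, 0 were called at an adjusted p under 0.05 in any comparison by edgeR and 0 by limma's voom. DESeq2 also called 0, but gave no adjusted p for Pf4 and Cbr2 in APP/PS1 against WT, nor for Lyve1, Pf4, Cbr2 and Ms4a7 in N-AS-injected against APP/PS1 mice. For APP/PS1 against WT, 3.47% of all genes were called in the same fit, and 0% and 0.187% for N-AS-injected mice against APP/PS1 and against WT. At an unadjusted p under 0.05, the main edgeR fit again counted 0 of 7 in each comparison, beside 17.2%, 8.83% and 6.73% of all genes. Ms4a7 passed this unadjusted level in alternative fits, as given above. In each comparison the groups overlapped for all 7 genes, while 14.9%, 12.7% and 8.81% of all genes had groups that did not overlap. The members' median log2 fold change was 0.16 for APP/PS1 over WT, −0.07 for N-AS-injected over APP/PS1 mice and −0.18 for N-AS-injected over WT mice, and the medians over all genes were −0.07, −0.01 and −0.04. N-AS-injected mice against WT gave single log2 fold changes from −0.69 for Cbr2 to 0.53 for Pf4. The comparisons share their APP/PS1 or WT libraries, so they are not independent. In bulk RNA a lower level can come from fewer cells or from less RNA per cell, and these cannot be told apart. The intervals still allow changes past 1 log2 unit in either direction for Cbr2 (−1.35 to 1.68) and Ms4a7 (−1.22 to 2.40) in APP/PS1 over WT and for Pf4 (−1.33 to 1.36) in N-AS-injected over APP/PS1 mice.

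**Figure D2:**
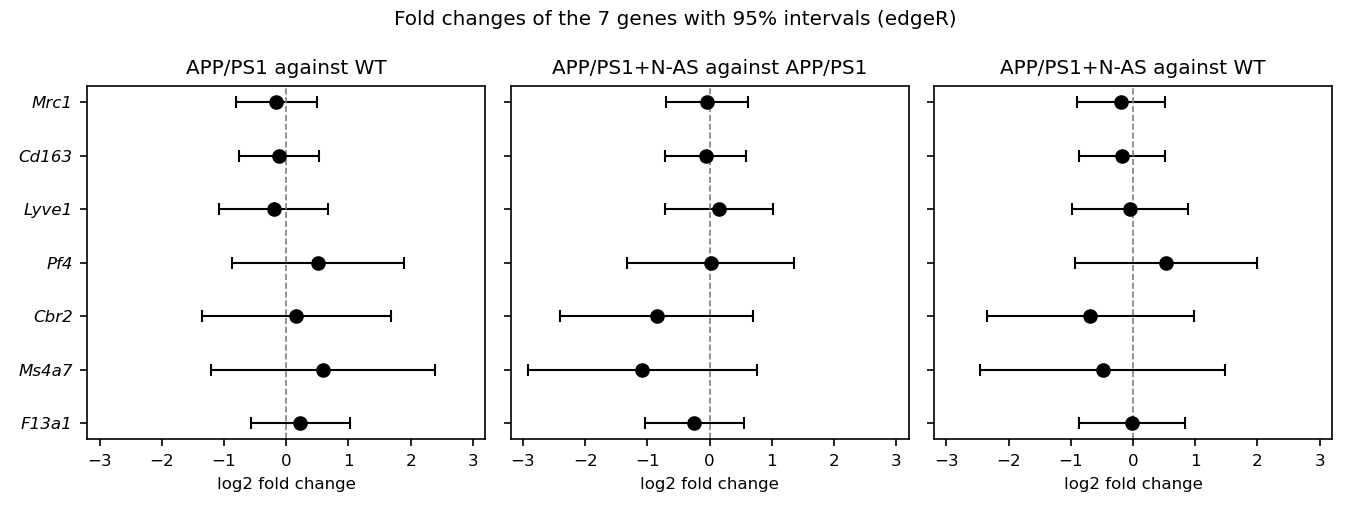
Log2 fold changes of the 7 genes from edgeR (points) with 95% intervals (bars) in the 3 comparisons, with a dashed line at 0. Every interval crosses 0, and that for Ms4a7 in N-AS-injected against APP/PS1 mice runs from −2.91 to 0.75.

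Cd86 encodes a costimulatory molecule that the study paired with CD206, as proteins in flow cytometry. Its transcript rose in APP/PS1 in the same libraries. Its level was 7.49, 5.14 and 7.76 CPM in WT, 18.6, 14.8, 21.2 and 20.0 CPM in APP/PS1 and 15.2, 14.9 and 11.5 CPM after N-AS. All APP/PS1 libraries lay above all WT libraries, with a log2 fold change of 1.46 (SE 0.20, adjusted p = 0.00311 by edgeR). N-AS-injected over APP/PS1 mice gave −0.42, with overlapping groups and an adjusted p of 0.556. The mean log2 CPM of 14 microglial markers, described below, rose by 1.37 from WT to APP/PS1. Whether Cd86 changed relative to these markers, or differed from Mrc1 in its response, was not tested.

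The members also differed by library number. The labels number the libraries 1 to 10, and numbers 1 to 6 are the replicates 1 and 2 while numbers 7 to 10 hold WT replicate 3, APP/PS1 replicates 3 and 4 and N-AS replicate 3. What the numbers stand for is not given. In APP/PS1 and in N-AS-injected mice, each of the 7 genes had a higher mean CPM in numbers 7 to 10 than in numbers 1 to 6, whereas in WT each of the 7 was lower there. Mrc1 averaged 12.4 and 20.5 CPM in the lower and higher numbers of APP/PS1, 12.1 and 24.2 CPM in those of N-AS-injected mice and 20.4 and 14.6 CPM in those of WT. Within numbers 1 to 6, 6 of 7 members were therefore lower in APP/PS1 than in WT, with differences of mean log2 CPM from −1.09 for Lyve1 to 0.16 for Ms4a7. Within numbers 7 to 10 all 7 were higher, from 0.43 for Cd163 to 1.95 for Cbr2. A fall in the lower and a rise in the higher numbers was seen in 25.5% of all genes tested. Between N-AS-injected and APP/PS1 mice the differences within the 2 sets were −0.03 and 0.24 for Mrc1, 0.18 and 0.01 for Cd163 and −0.04 and −0.13 for F13a1. Only WT replicate 3 stands for WT in the higher numbers, so the difference between the sets was not tested.

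**Figure D3:**
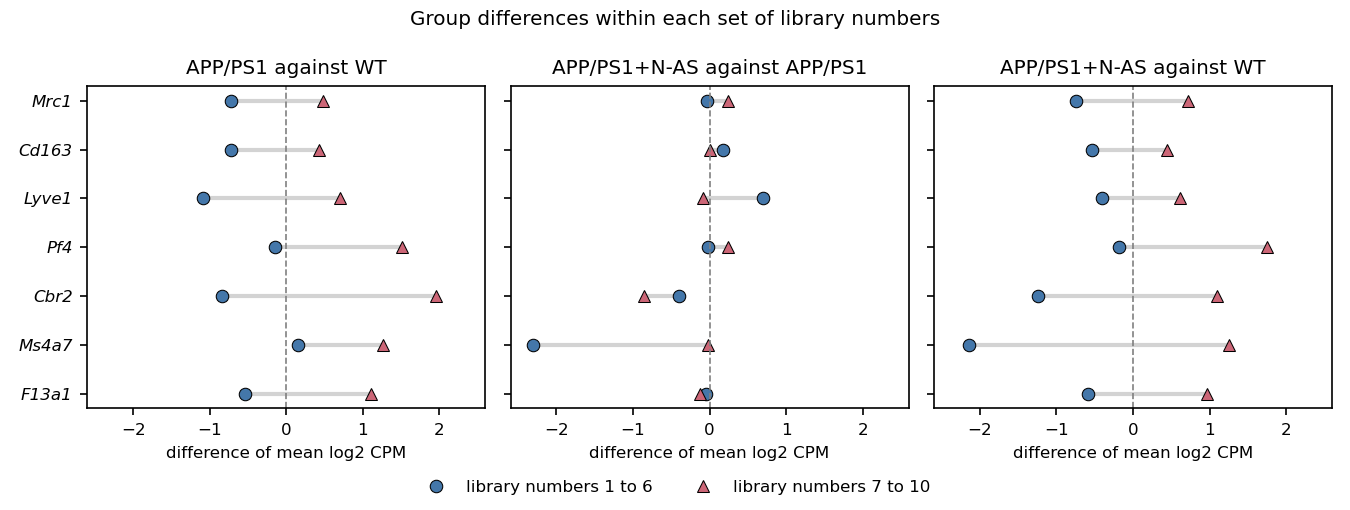
Differences of mean log2 CPM between groups for each of the 7 genes, within library numbers 1 to 6 (circles) and 7 to 10 (triangles), joined by grey lines, with a dashed line at 0. For APP/PS1 against WT the circles lie from −1.09 to 0.16 and the triangles from 0.43 to 1.95.

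Other cell types also differed between these libraries, and their part in the members' values was not tested. Oligodendrocyte markers summed to 3755 to 6722 CPM in numbers 1 to 6 and to 1875 to 2818 CPM in numbers 7 to 10, and astrocyte markers to 2278 to 2599 CPM and to 2692 to 3986 CPM. The astrocyte sums rest mainly on Slc1a2, which averaged 1909, 1941 and 1921 CPM in WT, APP/PS1 and N-AS-injected mice. WT replicate 3 had the lowest sum of any library for the meningeal fibroblast list (157 CPM, against 260.3 and 300.1 in the other WT libraries). Its monocyte sum was also the lowest (63.4 CPM, against 119 in each other WT library). In that list Ace and Vcan had the largest WT means (51.6 and 33.7 CPM), while Ly6c2 and Ccr2 averaged 8.06 and 1.98 CPM. Blood endothelium (511 CPM) and mural cell (518 CPM) sums were lowest there too. Its neuron sum was the highest of any library, at 4859 CPM against 1438 and 1695 in the other WT libraries. APP/PS1 replicate 3, the library with the highest sum of the 7 members (51.5 CPM), had 627 CPM of meningeal fibroblast markers, against 206 to 257 CPM in the other APP/PS1 libraries. The genes of this list did not move together. From WT to APP/PS1 the group means rose for Col1a2 (66.6 to 123 CPM) and Col1a1 (23.2 to 52.5 CPM). They fell for Dcn (17.8 to 12.6 CPM) and Foxc1 (41.0 to 36.4 CPM). The APP/PS1 means include replicate 3 with its high sum of this list. The means of Col1a2 and Col1a1 therefore show no rise in the other APP/PS1 libraries. Over all libraries Col1a2 had 564 to 4590 reads and Col1a1 192 to 2191. Choroid plexus markers, with Ttr, were at 10.5 CPM in WT replicate 3 and 10.9 CPM in N-AS replicate 3, and at 407 to 1214 CPM elsewhere. N-AS replicate 3 nevertheless had 50.7 CPM of the 7 members, the second highest sum.

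The 7 genes varied together across the libraries. Pearson's r of log2 CPM was positive in all 21 pairs of members, from 0.34 to 0.945 with a median of 0.608 over 10 libraries. It was highest for Mrc1 with Cd163 (0.945) and above 0.76 for each pair among Mrc1, Cd163, Lyve1 and F13a1. After group means had been removed, the pairs ranged from 0.427 to 0.942, with a median of 0.699. These are descriptions over libraries that share a number set, a scaling and the same cell mixture, and they carry no test. The average of the standardized members followed the mean of the wider list of border macrophage genes described below (r = 0.817), the meningeal fibroblast list (0.706), the monocyte list (0.669), the lymphatic endothelium list (0.598), the mural cell list (0.567) and the astrocyte list (0.556), while r was −0.08 with the microglial markers. With group means removed, the astrocyte list had the highest value of all lists (0.824), followed by the wider list (0.819), the meningeal fibroblast list (0.716) and the monocyte list (0.658), and the microglial markers had −0.33. The astrocyte genes did not move together between groups. From WT to APP/PS1 the mean rose from 14.7 to 735 CPM for Gfap, and S100b, Aqp4, Slc1a2 and Sox9 also rose. It fell for Slc1a3 (194 to 171 CPM), Gja1 (134 to 116 CPM), Aldoc and Aldh1l1. Which of these genes carried the r was not tested. Over the libraries without APP/PS1 replicate 3, r was 0.774 for the wider list, 0.630 for the meningeal fibroblast list, 0.576 for the monocyte list and 0.411 for the astrocyte list.

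Among 17188 other genes with a mean of at least 1 CPM, those most like the average of the 7 members over 10 libraries were Gm15319 (r = 0.964), 9830147E19Rik (0.941), Tmem216 (0.917), Steap3 (0.911) and Gm8787 (0.903). With group means removed they were Gm15319 (0.975), Frem2 (0.955), 9830147E19Rik (0.951), Rbl2 (0.942) and Ctbs (0.933). These values rank the genes by likeness only. None of these 8 genes belongs to the macrophage lists used here.

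The wider list held 25 further genes known from border macrophages, of which 24 were in the files and 21 passed the filter. Cd209d, Ccl24 and Marco had too few reads, and Ms4a4a was not matched. Several are also used by other brain cells, such as Ednrb by astrocytes and Stab1 by microglia and endothelium. For APP/PS1 against WT, 1 of the 21 was called higher and 0 lower by edgeR, and 11 estimates were above 0 and 10 below, with a median of 0.03 on the log2 scale. For N-AS-injected against APP/PS1 mice 0 were called, 18 of 21 estimates were below 0 and the median was −0.23. For N-AS-injected against WT mice 0 were called and the median was −0.48. The called counts stand beside the shares of all genes given above for the same fits.

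Hpgd, the enzyme that starts the inactivation of prostaglandins, was the gene called. It measured 3.68, 6.25 and 11.9 CPM in WT, 17.3, 20.4, 27.9 and 18.9 CPM in APP/PS1 and 14.7, 15.9 and 17.1 CPM after N-AS. Every APP/PS1 library exceeded every WT library, with a log2 fold change of 1.50 (SE 0.32, adjusted p = 0.0297 by edgeR). The call was lost when WT replicate 1 or 2 or APP/PS1 replicate 2, 3 or 4 was left out. Its r with the average of the 7 members was −0.08, so it did not share their course over the libraries. For N-AS-injected over WT mice Hpgd gave 1.09, with an adjusted p of 0.453, and for N-AS-injected over APP/PS1 mice −0.41.

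Among the rest of the wider list, 0 genes were called in any comparison by edgeR, and those with the lowest p are given here. Stab1, a scavenger receptor, gave a log2 fold change of 0.35 for APP/PS1 over WT (adjusted p = 0.212) and of 0.39 for N-AS-injected over WT mice (adjusted p = 0.624). Clec10a, a galactose-binding lectin, measured 0.949, 0.992, 2.87 and 2.52 CPM in APP/PS1 and 0.659, 0.477 and 0.517 CPM after N-AS. These groups did not overlap, but with 7 to 53 reads a library the fold change of −1.74 had an adjusted p of 0.531. Clec12a, an inhibitory lectin receptor, gave −1.48 for the same comparison (adjusted p = 0.534) and 0.78 for APP/PS1 over WT. Cd209f and Cd209g, lectins of the CD209 family, gave −1.30 and −1.87 for N-AS-injected over APP/PS1 mice and −1.63 and −2.67 over WT mice, with 0 to 7 reads of Cd209g in the N-AS libraries and adjusted p-values from 0.658 to 0.808 by edgeR. Dab2, an adaptor of clathrin-coated vesicles, gave 0.30 for APP/PS1 over WT (adjusted p = 0.482). Near-identical members of the CD209 and C-type lectin families can share reads, so single values of Cd209f and Cd209g are uncertain.

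Cd209f was also the member of the wider list most like the 7 genes over the libraries (r = 0.788), followed by Mgl2 (0.720) and Ms4a6c (0.677). Of the 15 genes of the wider list with a mean of at least 1 CPM, 12 had a positive r and the median was 0.536, whereas the median over all 17188 genes was −0.01. Stab1 had the lowest value (−0.403).

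The members were also set against the microglial markers. The mean log2 CPM of 14 microglial markers was 5.45 ± 0.30 in WT (SD, n = 3), 6.82 ± 0.15 in APP/PS1 (n = 4) and 6.27 ± 0.22 after N-AS (n = 3), and 10 of the 14 were called higher in APP/PS1 than in WT by edgeR. Relative to that mean, each of the 7 genes was lower in APP/PS1 than in WT, by differences from −1.67 for Lyve1 to −0.74 for Ms4a7 on the log2 scale. Mrc1 (−1.57), Cd163 (−1.56) and Lyve1 had groups that did not overlap. Of all genes tested, 78.3% were lower with groups that did not overlap on this scale, so the members' 3 of 7 lies below the background. For N-AS-injected against WT mice 0 of 7 were lower without overlap, beside 56% of all genes, and for N-AS-injected against APP/PS1 mice 0 of 7, beside 0.31%. With libraries scaled to microglial markers in the edgeR fit, 4 of 7 members were called lower in APP/PS1 than in WT, beside 88.4% of all genes called in that fit, with a median log2 fold change of −1.32 over the 7 genes and −1.45 over all genes.

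**Figure D4:**
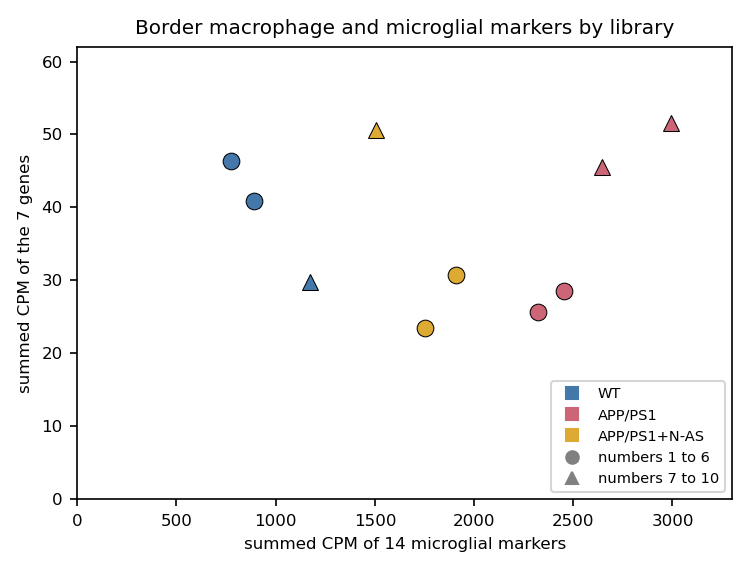
Summed CPM of the 7 genes (vertical axis) against summed CPM of 14 microglial markers (horizontal axis) in each of the 10 libraries, coloured by group, with circles for library numbers 1 to 6 and triangles for 7 to 10. Microglial sums lie between 775 and 1174 CPM in WT and between 2320 and 2992 CPM in APP/PS1, whereas the sums of the 7 genes span 29.7 to 46.4 CPM and 25.6 to 51.5 CPM.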

How the data were processed

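Raw read counts per gene symbol, one table per library, were used as deposited by the authors, who depleted rRNA, used a stranded kit, ran TopHat on the paired reads and counted reads on transcripts with bedtools and Bioconductor. The submitters' processing notes name mm10 and edgeR. The annotation, strand setting and tool versions are not given in the sources used here, and FPKM or quantile-normalized values were not used. Groups came from the labels. Lines sharing a symbol were summed. Genes passing filterByExpr were fitted in one model of 3 groups with edgeR 4.0.16 (TMM, glmQLFit, glmQLFTest, R 4.3.3), with Benjamini-Hochberg adjustment over all genes tested and a threshold of 0.05. CPM used TMM factors, and log2 CPM a prior count of 2. The intervals are at 95%. Separate pools of mice were the replicates.

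The members and lists were chosen with earlier results of these data known. Named genes were the 7 members, Cd86, App, Xist, up to 4 genes of the wider list with the lowest p in each comparison, the 5 genes most correlated with the members and markers that moved with them. As alternatives, DESeq2 1.42.0, voom in limma 3.58.1, other scalings and filters, a replicate block, a term for library numbers, fits of 2 groups and leaving out each library were tried. Same-numbered libraries correlated by 0.278, 0.142 and 0.309 after removal of group means for N-AS-injected against APP/PS1 mice. In the other comparisons these values ran from −0.485 to 0.441. The numbers come from the labels, which state no pairing. The main fit was not paired, and pairing by number was tried only as the replicate block. The scripts were tested on simulated data. Promoter letters came from RefSeq and positions from GENCODE M21.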

Additional observations from a re-analysis of the deposited data

Results flagged for a closer look

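In the APP/PS1 group, 1 of the 4 libraries lay far from the rest in 4 of the 40 sets of values examined. Some far libraries come up by chance alone among so many sets. The sets share their libraries and are not independent, so no rate by chance was set against this count. APP/PS1 replicate 3 had the highest sums of meningeal fibroblast markers (627 CPM) and of monocyte markers (142 CPM), and the lowest sum of blood endothelium markers (1050 CPM, against 1135 to 1149 CPM in the other APP/PS1 libraries). APP/PS1 replicate 4 had the highest sum of lymphatic endothelium markers (166 CPM), a list whose sum rests mainly on Reln. None of the 7 border macrophage genes had an APP/PS1 library that far from the others.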

How the results depend on the processing

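In 45 of 47 alternative counts, 0 of the 7 members were called. Scaling to microglial markers called 4 members, and 12 of the wider list, for APP/PS1 against WT, and 2 and 5 for N-AS-injected mice against WT, while calling 16564 and 11912 of all genes. It moved the median log2 fold change of all genes to −1.45, 0.55 and −0.86. On that scale Pf4, Cbr2, Ms4a7 and F13a1 turned to −0.92, −1.32, −0.85 and −1.24 for APP/PS1 against WT, Mrc1, Cd163 and F13a1 to 0.60, 0.56 and 0.39 for N-AS-injected against APP/PS1 mice, and Pf4 to −0.28 against WT. Hpgd, the 1 call of the wider list, was lost with total counts only and with only the 2 groups compared (0 called each).

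None of the other reversed estimates was called. For N-AS-injected against APP/PS1 mice Pf4 was −0.023 with total counts and with upper-quartile scaling (−0.016) and −0.0034 with only 2 groups. In the fit with a replicate block, Mrc1 and Cd163 were 0.036 and 0.079 there, and Cbr2 was −0.084 for APP/PS1 against WT. The block called 0 members, and 326, 0 and 5 of all genes in the 3 comparisons, in place of 649, 0 and 35, and changed no call of a member. A term for library numbers gave 0.030 for Mrc1 and 0.046 for Cd163, and called 1055, 0 and 64 genes. Against WT, F13a1 after N-AS was 0.015 with total counts and 0.012 without the filter, and voom gave 0.079 for Lyve1 and 0.45 for Cbr2. DESeq2 called 1362, 79 and 187 genes, and fits of 2 groups 410, 0 and 2.

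With each library left out, the log2 fold changes of APP/PS1 over WT ranged from −0.29 to 0.039 for Cd163, −0.43 to 0.032 for Lyve1, −0.33 to 0.87 for Cbr2, 0.20 to 1.32 for Pf4, 0.27 to 1.29 for Ms4a7 and −0.047 to 0.38 for F13a1. For N-AS-injected over APP/PS1 mice they ranged from −0.44 to 0.16 for Mrc1, −0.34 to 0.12 for Cd163, −0.028 to 0.38 for Lyve1, −0.41 to 0.43 for Pf4, −2.91 to −0.52 for Ms4a7 and −0.54 to 0.037 for F13a1. Over WT they ranged from −0.58 to 0.0015 for Mrc1, −0.24 to 0.18 for Lyve1, 0.11 to 1.33 for Pf4, −1.18 to 0.014 for Cbr2, −2.30 to 0.20 for Ms4a7 and −0.30 to 0.25 for F13a1. The wider list gave 0 to 1 calls against WT, and all genes gave 299 to 923, 0 to 1 and 1 to 116. The cause of these shifts was not tested, and the low counts of Pf4, Cbr2 and Ms4a7 limit their precision.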
